A study of Mus musculus with 16 samples.

Results

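The genes described here were those of the cytosolic ribosomal proteins, the protein components of the ribosomes that translate the mRNAs of the cytoplasm. They were taken by gene symbol. A row was kept where the symbol was Rpl or Rps followed by p0 to p2, by a, or by a number with no further letter or with a, x or l, and of rows with the same symbol the row with the highest mean was used. Of the 32989 genes in each table, 85 rows had such a symbol, and they gave 82 genes, 32 of the small and 50 of the large ribosomal subunit. Repeated symbols were found for Rpl26 and Rpl29.

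Livers and kidneys of 8 male C57BL/6J mice had been sequenced after 85 weeks in 1 of 2 light conditions, at an age of 97 weeks. The 4 LD-conditioned mice (L63, L65, L86 and L104) had lived under a fixed cycle of light and dark, and the cycle of the 4 ADV-conditioned mice (A75, A91, A94 and A115) had been advanced by 8 h every 4 days. Each of the 16 libraries was made from poly(A)-enriched RNA of whole tissue of 1 organ of 1 mouse, and all mice were of the same strain with no engineered allele named. Levels are given in FPKM, the fragments of a gene divided by its exon length and by the total of the library, and are relative to the rest of each library. Between genes they are limited by exon models that differ from the transcript in use and by near-identical copies in the genome.

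Each cytosolic ribosome holds about 1 copy of most of these proteins, and cells make them in amounts that match each other. Their mRNAs are among the most abundant of a cell, are short, and typically begin with a C followed by an uninterrupted run of pyrimidines, the terminal oligopyrimidine (TOP) motif. The kinase complex mTORC1, which senses nutrients and growth factors, controls the translation of TOP mRNAs through the RNA-binding protein LARP1, so that the output of these genes is regulated at translation as well as through the amount of mRNA, and only the latter was measured here.

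The bases around the annotated start are shown for 8 of the genes because they carry the results below. Each window runs from 10 bases before the annotated start to 20 bases from it (RefSeq, GRCm38.p6), and capitals mark a tract, defined as a C at the start or within 5 bases of it that is followed by at least 4 bases that are each C or T. Rps6 and Rpl35 lie on the minus strand at chr4:86857348-86857377 and chr2:39005112-39005141, and Rps27 on the minus strand at chr3:90213629-90213658. Rpl38 (chr11:114668570-114668599), Rpl28 (chr7:4792955-4792984), Rplp2 (chr7:141447641-141447670) and Rpl10 (chrX:74270806-74270835) lie on the plus strand, and Rps28 on the minus strand at chr17:33824543-33824572.
Rps6: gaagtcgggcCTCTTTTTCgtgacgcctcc
Rpl35: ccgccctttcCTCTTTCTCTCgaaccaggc
Rps27: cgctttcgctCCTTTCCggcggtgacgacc
Rpl38: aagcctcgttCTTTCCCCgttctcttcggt
Rpl28: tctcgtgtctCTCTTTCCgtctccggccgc
Rplp2: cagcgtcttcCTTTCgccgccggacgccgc
Rpl10: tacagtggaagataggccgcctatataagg
Rps28: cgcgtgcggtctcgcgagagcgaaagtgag
The first 6 begin with a tract at the annotated start itself, and Rpl10 and Rps28 have none in this window.

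A promoter entry was matched by symbol for 61 of the 82 genes. A tract was found at 29 of them (47.5%), against 5718 of the 27025 genes with an entry (21.2%), 17 of 69 genes of mitochondrial ribosomal proteins (24.6%) and 5 of 11 other genes known to have a TOP motif (45.5%). No match says only that the letters are not in this window of the annotation. The median level was 176 FPKM in the liver for the genes with a tract and 214 FPKM for those without, and 250.1 and 255 FPKM in the kidney.

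In all 16 libraries the ribosomal protein mRNAs were among the abundant transcripts. The median gene had a mean of 200.4 FPKM in the liver and 261 FPKM in the kidney, and 64 of the 82 genes lay between 100 and 500 FPKM in the liver and 69 of 82 in the kidney. In the LD livers the highest mean was that of Rpl10 (575 ± 45.8 FPKM, SD, n = 4), which joins the large subunit late in its assembly, followed by Rps2 (436 ± 30.4 FPKM), Rpl4 (390.03 ± 22.9 FPKM), Rpl7 (382 ± 32.7 FPKM) and Rpl41 (379 ± 33.6 FPKM, SD, n = 4 each). Every LD liver had more Rpl10 than any LD liver had of these other 4 genes, and the ranges of Rpl4, Rpl7 and Rpl41 overlapped. In the LD kidneys Rpl41, which encodes one of the smallest proteins known in the mouse, had 612 ± 89.0 FPKM (SD, n = 4), ahead of Rpl10 with 523 ± 90.97 FPKM (SD, n = 4), Rpl26 with 509 ± 44.8 FPKM, Rpl7 with 481 ± 45.1 FPKM and Rps24 with 472 ± 43.2 FPKM. The kidney ranges overlap, so that the order among them is not larger than the spread between mice. The order of Rpl41 and Rpl10 was reversed between the organs in each of the 4 LD mice. Across the 79 genes tested, Pearson's r between their mean log2 levels in the organs was 0.951 and Spearman's rho was 0.856. The genes share libraries and exon models in this comparison and are not independent replicates.

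The lowest means in the LD livers were those of the paralogs Rpl10l, Rpl39l, Rpl3l, Rpl32l and Rps4l, followed by Rps15a and Rps20, which have long exon models. Rps15a had a mean of 21.1 ± 1.53 FPKM in the LD livers (SD, n = 4) over a model of 5131 bases, and Rps20 had 27.1 ± 2.80 FPKM (SD, n = 4) over 3442 bases, while the median exon length of the set was 724.5 bases. Coding transcripts of Rps15a have a median length of 638.5 bases in GENCODE, and a model longer than the transcript in use lowers FPKM. For Rps20 that median was 3706 bases, close to its model. The transcript in use was not measured, and the part of the exon models in these low levels was not tested.

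**Figure D1:**
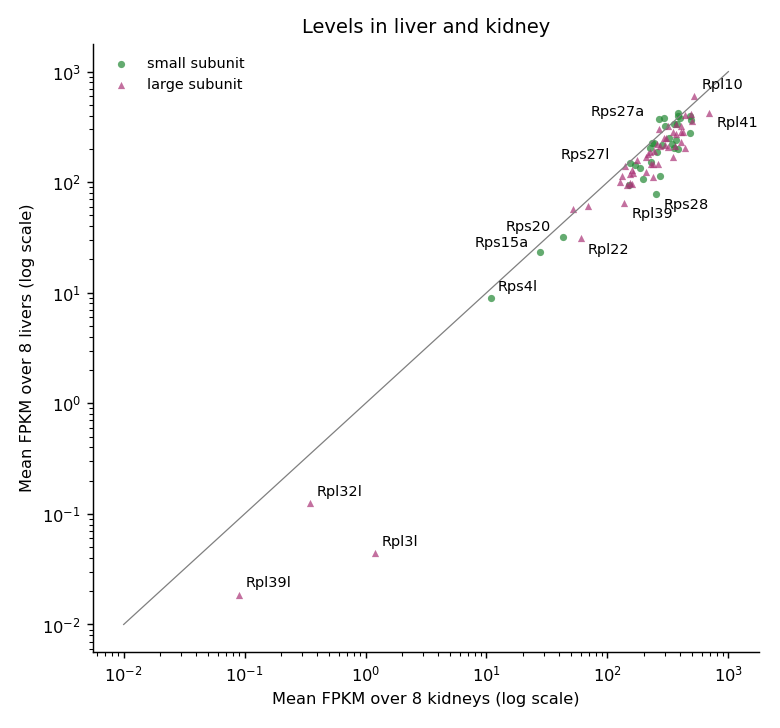
Mean FPKM of each ribosomal protein gene over 8 kidneys (horizontal axis, log scale) and over 8 livers (vertical axis, log scale), with circles for the small and triangles for the large subunit and a line of equal levels; Rpl10l, at 0 in every library, is not drawn. Most genes lie close together near the upper end, and the median of the set was higher in the kidney than in the liver. Rpl28, Rps28 and Rpl39 are among the genes on the kidney side, and Rpl3l, Rpl32l and Rpl39l lie at the low end.

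Several of these genes are paralogs that are known from particular tissues. Rpl3l, the form of Rpl3 that is known from skeletal and heart muscle, was between 0.0161 and 0.0941 FPKM in the livers, which is 0.5 to 3 fragments per library. In the kidneys of the LD-conditioned mice it was at 1.61, 0.665, 1.90 and 2.08 FPKM, and in those of the ADV-conditioned mice at 0.754 (A75), 1.14 (A91), 1.17 (A94) and 0.211 FPKM (A115). It was thus higher in every kidney than in every liver and far below Rpl3, which had 217 ± 18.8 FPKM (SD, n = 4) in the LD kidneys. Rpl10l and Rpl39l are known from the testis as counterparts of Rpl10 and Rpl39. For Rpl10l, 0 fragments were counted in any library, which allows up to 3 in each, and for Rpl39l 3 fragments were counted in all 8 livers and 10 in all 8 kidneys, 8 of them in a single kidney.
Rps4l, a relative of the X-linked Rps4x, had 7.92 ± 1.67 FPKM (SD, n = 4) in the LD livers and 9.58 ± 1.58 FPKM in the LD kidneys, where Rps4x had 309 ± 25.3 and 335 ± 45.6 FPKM (SD, n = 4 each). In the livers of the ADV-conditioned mice Rps4l was at 10.97 (A75), 6.79 (A91), 6.17 (A94) and 15.4 FPKM (A115), so that it did not follow the other genes in A94.
Rps27l, a paralog of Rps27 that is known as a target of p53, was below its partner, with 136 ± 8.69 FPKM against 217 ± 26.5 FPKM for Rps27 in the LD livers and 160.3 ± 1.87 against 347 ± 50.7 FPKM in the LD kidneys (SD, n = 4 each), and the ranges did not overlap in either organ. The transcripts of Rps27l and Rps27 are identical at 179 of 230 aligned bases (77.8%), and they share no stretch of 100 bases, so that their reads can be told apart. By the same measure Rpl3l and Rpl3 were 75.3% identical and Rps4l and Rps4x 79.7%. The pairs closer in sequence were Rpl39l and Rpl39 (83.7%), Rpl10l and Rpl10 (84.3%) and Rpl32l and Rpl32 (96.0%). None of these pairs shared a stretch of 100 bases.

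Other copies of these genes in the genome limit what can be counted. Of the 82 genes, 72 share at least 1 stretch of 100 bases of their transcript with another annotated gene, and for 31 genes that holds for 50% of such stretches or more. The share was 98.4% for Rps27, 91.6% for Rpl10 and 88.9% for Rps12, and it was 0 for Rps21 and Rpl32. Reads with a mapping quality under 10 had been removed by the authors, so that levels of genes with many copies are uncertain, and the effect of this filter on the comparisons was not tested.

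Before the comparisons, several libraries stood apart from the others of their organ. The liver of A94 held 2.01% of its fragments on the 82 genes, against 1.19% to 1.40% in the LD livers and 1.31% to 1.41% in the other ADV livers. The kidney of A115 held 1.07%, against 1.52% to 1.90% in the LD kidneys, and 33.8% of its fragments on mitochondrial genes, against 15.7% to 18.02%. The kidneys of A75 and A94 held 2.43% and 2.47% on the 82 genes, above every LD kidney, and smaller mitochondrial shares than any LD kidney. The libraries held between 22742500 and 26287000 fragments in the liver and between 17115700 and 19702200 in the kidney, rounded to the nearest 100, and 1 fragment in a gene with 600 bases of exon amounted to 0.0634 to 0.0733 FPKM in the liver and 0.0846 to 0.0974 FPKM in the kidney. The 10 hepatocyte markers summed to between 58646 and 72341 FPKM in the livers, and all 10 markers of the kidney epithelium were detected in the kidneys, whereas 6 of these 10 were at 0 in every LD liver. The sequencing had been shared between 2 providers and instruments, and since the provider of each library is not given in the sources used here, it cannot be told apart from condition or organ.

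In the liver, nearly all ribosomal protein mRNAs had a higher mean in the ADV-conditioned mice, by a small amount that came mostly from 1 mouse, and no gene passed the test. On the log2(FPKM + 0.1) scale 77 of 78 genes tested were above 0, against 65.7% of all 12835 genes tested, with a median difference of 0.20 against 0.096 for all genes. Tested by limma with Benjamini-Hochberg adjustment across the table, 0 of the 78 passed an adjusted p of 0.05 in either direction, where 0.0% of all genes were called as higher and 0.00779% as lower. At an unadjusted p under 0.05, 5 were higher (8.65% of all genes) and 0 were lower (3.13%), and limma-voom on the recovered fragments also gave 0 genes with an adjusted p under 0.05. In 8 of the 78 genes every ADV liver lay above every LD liver, against 6.94% of all genes, and in 0 below (1.89%).

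The shift of the whole set was seen mouse by mouse. Relative to the mean of the LD livers, the liver of A94 had a median of 0.62 over the genes, and the medians of A75, A91 and A115 were 0.12, 0.070 and −0.0094, and among the LD livers it was 0.022 in L63, 0.076 in L65, 0.080 in L86 and −0.16 in L104. After scaling by the median ratio, which sets a library by its typical gene, the median of A94 was 0.32. Those of A75, A91 and A115 were then 0.13, 0.084 and −0.098. Those of the LD livers lay between −0.20 and 0.078. As deposited, the 4603 other genes tested with a mean of at least 10 FPKM had a median of 0.17 in A94. In A94, 77 of 78 genes lay above every LD liver, and the corresponding count was 39 in A75, 33 in A91 and 9 in A115. Below every LD liver lay 0 genes of A94, 4 of A75, 2 of A91 and 6 of A115. The same shares over all genes were not taken for single libraries, so that these counts cannot be set against them. L104 was the lowest LD liver, with 1 gene above the LD mean. Small and large subunit moved alike in A94, with medians of 0.69 and 0.57.

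**Figure D2:**
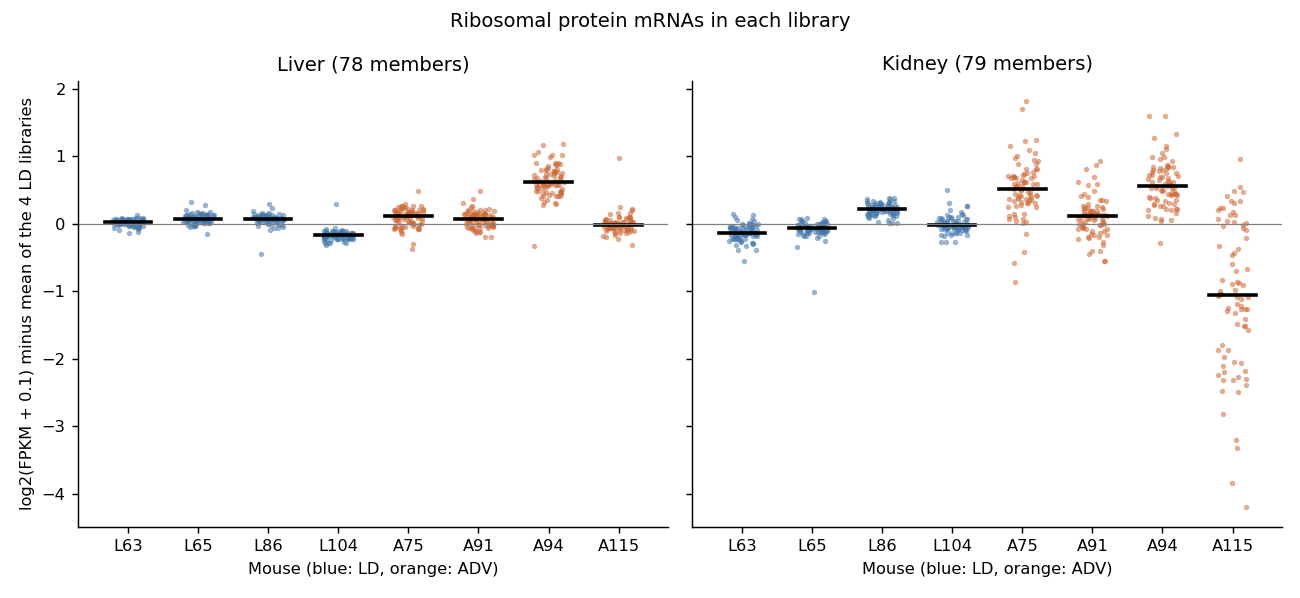
Each point is 1 ribosomal protein gene, plotted as its log2(FPKM + 0.1) in a library minus the mean of the 4 LD libraries of that organ (vertical axis), for each mouse (horizontal axis) in liver (78 genes) and kidney (79 genes); black bars are medians. The genes moved together in most libraries, the liver of A94 lies above the rest with a median of 0.62, and the kidney of A115 has the lowest median (−1.05) and the widest spread.

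Without the liver of A94 the median difference fell to 0.058, against 0.025 for all genes, with 57 of 78 genes above 0, against 54.1% of all genes, and 0 genes with an adjusted p under 0.05 by limma (0.0% of all genes as higher, 0.00797% as lower), 3 being higher (8.8% of all genes) and 1 lower (5.66%) at an unadjusted p under 0.05. With scaling by the median ratio, which takes the shift of all genes out of each library, the median was 0.11 with all 8 mice. Markers of other cell types moved with A94. The 13 lymphocyte markers found summed to 86.1 FPKM in that liver and to between 3.38 and 7.19 FPKM in the other 7, and 8 of the 13 had a mean of at least 1 FPKM in the ADV livers against 0 of 13 in the LD livers. The 14 myeloid markers summed to 457 FPKM in A94, against 106 to 171 FPKM in the LD livers and 156 to 214 FPKM in the other ADV livers, the 5 plasma cell markers to 889 FPKM against 174 to 209 FPKM in the LD livers, and the 6 bile duct markers to 252 FPKM against 21.6 to 29.2 FPKM. The 11 stromal markers summed to 234 (A75), 177 (A91), 382 (A94) and 224 FPKM (A115), each above the 138 to 148 FPKM of the LD livers, and the 5 erythroid markers found to 429.6 FPKM in A94 against 232 to 299.8 FPKM in the LD livers. Their part in the level of the ribosomal protein mRNAs was not tested, and in bulk tissue fewer cells of a type cannot be told apart from less RNA per cell.

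The 5 genes with an unadjusted p under 0.05 in the ADV livers were Rps27l, Rpl37, Rpl39, Rps29 and Rps7. Rps27l was at 137 (L63), 147 (L65), 132 (L86) and 127 FPKM (L104) in the LD livers and at 151 (A75), 191 (A91), 164 (A94) and 152 FPKM (A115) in the ADV livers. The groups did not overlap, and here A91 rather than A94 was the highest. Its log2 difference was 0.27 (standard error 0.11, adjusted p = 0.385 by limma), and it was 0.27 without A94 as well. A two-sided exact permutation test gave p = 0.0286, the lowest value that 4 mice against 4 can reach.
Rps29, a small zinc-binding protein of the small subunit, was at 88.6, 97.2, 98.0 and 82.4 FPKM in the LD livers and at 108, 113, 208 and 106 FPKM in those of A75, A91, A94 and A115. It was also separate between the groups, with a log2 difference of 0.49 (standard error 0.21, adjusted p = 0.412 by limma), which was 0.25 without A94. Rpl39, which lines the exit tunnel of the nascent chain, was at 53.3, 66.5, 50.7 and 43.5 FPKM in the LD livers and at 61.5, 68.6, 111 and 63.01 FPKM in the ADV livers. A75 and A115 lay below L65, so that the groups overlapped, and the log2 difference was 0.48 (standard error 0.20, adjusted p = 0.411 by limma) and 0.28 without A94.
Rpl37 and Rps7 had log2 differences of 0.35 and 0.31 (adjusted p = 0.404 and 0.414 by limma), with groups that did not overlap. Without A94 these were 0.203 and 0.199. The other 4 genes with separate groups were Rpl24, Rpl26, Rpl35 and Rpl35a.
Rps2, a small-subunit protein near the entry of the mRNA, was the only gene of the 78 with a log2 difference under 0 in the ADV livers, against 34.3% of all genes. Its levels were 423, 478, 438 and 407 FPKM in the LD livers and 354 (A75), 381 (A91), 557 (A94) and 349 FPKM (A115) in the ADV livers. All ADV livers but that of A94 were below every LD liver. The log2 difference was −0.12 (standard error 0.16, adjusted p = 0.755 by limma) and −0.27 without A94.

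**Figure D3:**
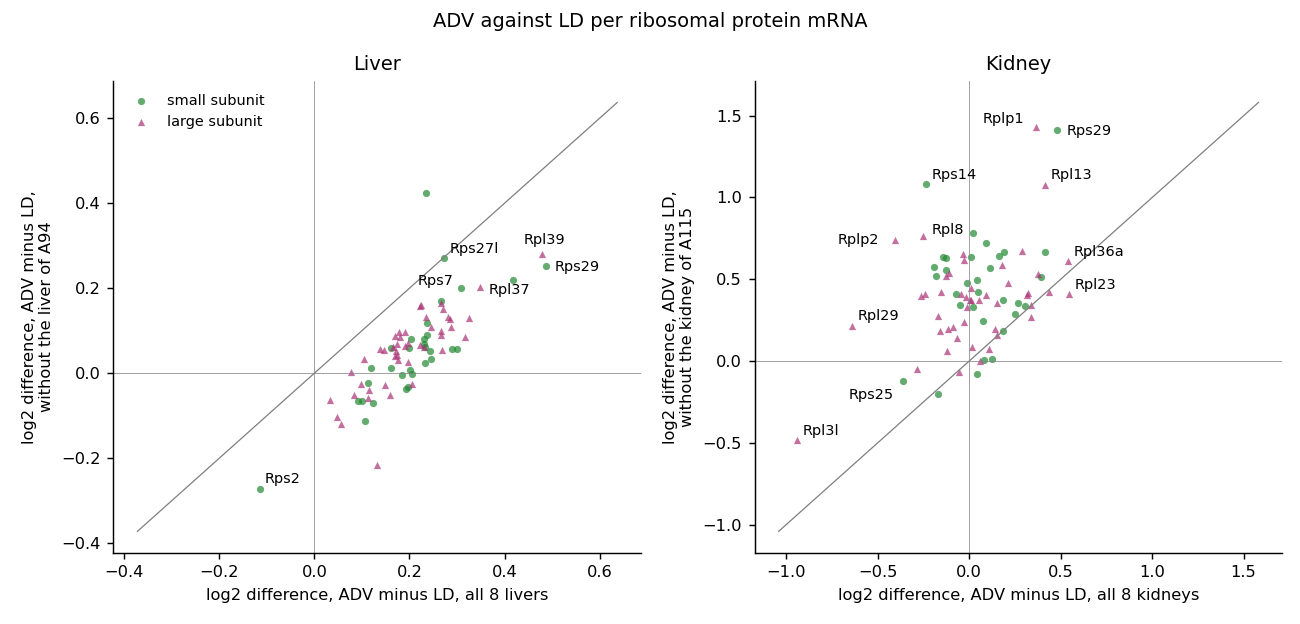
Difference of each ribosomal protein gene between ADV and LD (log2 scale) in the fit of all 8 mice (horizontal axis) and in the fit without 1 mouse (vertical axis), which is A94 in the liver and A115 in the kidney; circles are small and triangles large subunit, and the line marks equal values. In the liver most genes lie below the line, with a median of 0.20 that fell to 0.058, and in the kidney most lie above it, with a median of 0.019 that rose to 0.41.

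In the kidney the ADV-conditioned mice did not move together. A75 and A94 had higher ribosomal protein mRNAs than the LD mice, A91 lay close to them, and A115 had far lower levels of most of the genes. With all 8 kidneys the median log2 difference of the 79 genes tested was 0.019, against −0.024 for all 14452 genes, with 45 of 79 above 0 (46.4% of all genes) and 34 below (53.6%). By limma 0 of the 79 had an adjusted p under 0.05 in either direction (0.0% of all genes in each), 3 were higher at an unadjusted p under 0.05 (Rpl36a, Rpl23 and Rpl23a, against 1.75% of all genes) and 0 lower (1.35%), and limma-voom gave 0 genes with an adjusted p under 0.05. In 1 gene, Rpl36a, every ADV kidney lay above every LD kidney, against 0.962% of all genes, and in 0 below (1.83%).
Rpl36a was at 103, 124, 118 and 125 FPKM in the LD kidneys and at 177 (A75), 137 (A91), 234 (A94) and 148 FPKM (A115) in the ADV kidneys, a log2 difference of 0.54 (standard error 0.19, adjusted p = 1.0 by limma). Of its stretches of 100 bases, 83.6% occur in other annotated genes. Rpl23, a large-subunit protein that binds the p53 regulator MDM2, was highest in A115. Its levels were 229, 228, 269 and 232 FPKM in the LD kidneys and 388, 253, 325 and 466 FPKM in A75, A91, A94 and A115, and L86 lay above A91, so that the groups overlapped.

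Relative to the mean of the LD kidneys, the 79 genes had medians of 0.52 (A75), 0.11 (A91), 0.56 (A94) and −1.05 (A115), and between −0.13 (L63) and 0.22 (L86) in the LD kidneys. After scaling by the median ratio they were 0.28 (A75), 0.072 (A91), 0.33 (A94) and −0.56 (A115), and between −0.097 and 0.14 in the LD kidneys. The scaling moved each of these ADV medians by over 1.5 times. As deposited, the 4599 other genes tested with a mean of at least 10 FPKM had medians of 0.13, 0.062, 0.15 and −0.55 in A75, A91, A94 and A115. Above every LD kidney lay 63 genes of A75, 19 of A91, 70 of A94 and 12 of A115, and below every LD kidney 3, 17, 0 and 58 genes, in the same order of mice. As in the liver, the shares over all genes were not taken for single libraries, so that these counts cannot be read as particular to the set. Small and large subunit had medians of −1.24 and −0.995 in A115. The shares of mitochondrial fragments were 10.7% in A75, 13.1% in A91 and 9.43% in A94, all below those of the LD kidneys. As a share of the fragments that were not mitochondrial the 82 genes took 2.72%, 2.06%, 2.73% and 1.62% in A75, A91, A94 and A115, against 1.85% to 2.26% in the LD kidneys. The 10 markers of the kidney epithelium summed to 21133 FPKM in A75 and 23229 FPKM in A94, below the 29495 to 42031 FPKM of the LD kidneys, and to 32123 FPKM in A91 and 47386 FPKM in A115. The erythroid markers summed to 633 FPKM in A75, 835 FPKM in A94 and 115.4 FPKM in A115, against 157 to 352 FPKM in the LD kidneys. The myeloid and plasma cell markers summed to 423 and 609 FPKM in A94 and to 197 and 147 FPKM in A75, against LD ranges of 61.5 to 183 and 93.1 to 138 FPKM. The stromal markers summed to 222 (A75), 101 (A91), 226 (A94) and 174 FPKM (A115), against 90.9 to 129 FPKM in the LD kidneys. The lymphocyte markers summed to 102 FPKM in A94 and to between 6.03 and 15.5 FPKM in the other kidneys, and the bile duct list, whose genes Sox9 and Spp1 are also known from kidney tubules, to 6882 FPKM in A75 and 8283 FPKM in A115 against 726 to 2841 FPKM in the LD kidneys. Their part in these levels was not tested.

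The kidney of A115 did not lower all of these mRNAs by a common factor. The deviations of its 79 genes from the LD mean had an SD of 1.10 on the log2 scale, where the LD kidneys had 0.088 to 0.13 and A75, A91 and A94 had 0.42, 0.29 and 0.34. For the 4599 other genes tested with a mean of at least 10 FPKM over all 16 libraries the SD was 1.15 in A115 and 0.12 to 0.23 in the LD kidneys, so that the spread of the ribosomal protein genes was close to that of other expressed genes of the same library. Over the genes, the deviation in A115 had a Spearman correlation of −0.53 with the GC content of the transcript (n = 79 genes), a description of 1 library. In the other ADV kidneys the correlation was between 0.28 and 0.35, and in the LD kidneys it was −0.34 (L63), −0.18 (L65), 0.34 (L86) and 0.23 (L104).
Rps14, a protein of the platform of the small subunit, was the lowest. It was at 150.3 (L63), 201 (L65), 288 (L86) and 275 FPKM (L104) in the LD kidneys, at 517 (A75), 356 (A91) and 556 FPKM (A94), and at 11.998 FPKM in A115, an 18.3-fold lower level than the mean of the LD kidneys, taken from log2 values. In the liver of that mouse Rps14 was at 325 FPKM, within the LD range of 291 to 388 FPKM.
The P-stalk, which recruits the elongation factors to the ribosome, is built by the proteins of Rplp0, Rplp1 and Rplp2. Rplp2 was at 182, 210.3, 292 and 233 FPKM in the LD kidneys, at 446 (A75), 269 (A91) and 447 FPKM (A94), and at 15.7 FPKM in A115. Rplp1 was at 179, 218, 273 and 280.0 FPKM in the LD kidneys, at 824, 429 and 708 FPKM in A75, A91 and A94, and at 32.9 FPKM in A115. For Rplp0, which anchors the other two, the values were 324, 324, 447 and 374 FPKM in the LD kidneys, 731, 438 and 542 FPKM in A75, A91 and A94, and 92.4 FPKM in A115. All 3 thus had the same pattern, with A75 and A94 above every LD kidney and A115 below every one. Each of these positions was shared by most of the set (63 of 79 genes in A75, 70 in A94 and 58 in A115).
Rps29 was at 143, 147, 214 and 212 FPKM in the LD kidneys, at 573, 336 and 536 FPKM in A75, A91 and A94, and at 35.3 FPKM in A115. Rpl8 and Rpl29 of the large subunit were at 29.9 and 26.8 FPKM in A115, against 257 to 361 FPKM and 212 to 316 FPKM in the LD kidneys, and Rpsa, which is also known as a laminin receptor precursor, was at 44.2 FPKM against 188 to 254 FPKM.
Several other genes stayed within or above the LD range in A115, or just below it. Rps6, whose protein is phosphorylated below mTORC1, was at 196 FPKM, above the LD range of 122 to 169.7 FPKM, Rpl11 was at 333 FPKM, within the LD range of 315 to 334 FPKM, and Rpl5, the partner of Rpl11 in the complex that binds MDM2, was at 138 FPKM, just below the LD range of 144 to 174 FPKM. Rpl26 and Rps24 were at 499.8 and 585 FPKM, against LD ranges of 464 to 571 and 426 to 527 FPKM.

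**Figure D4:**
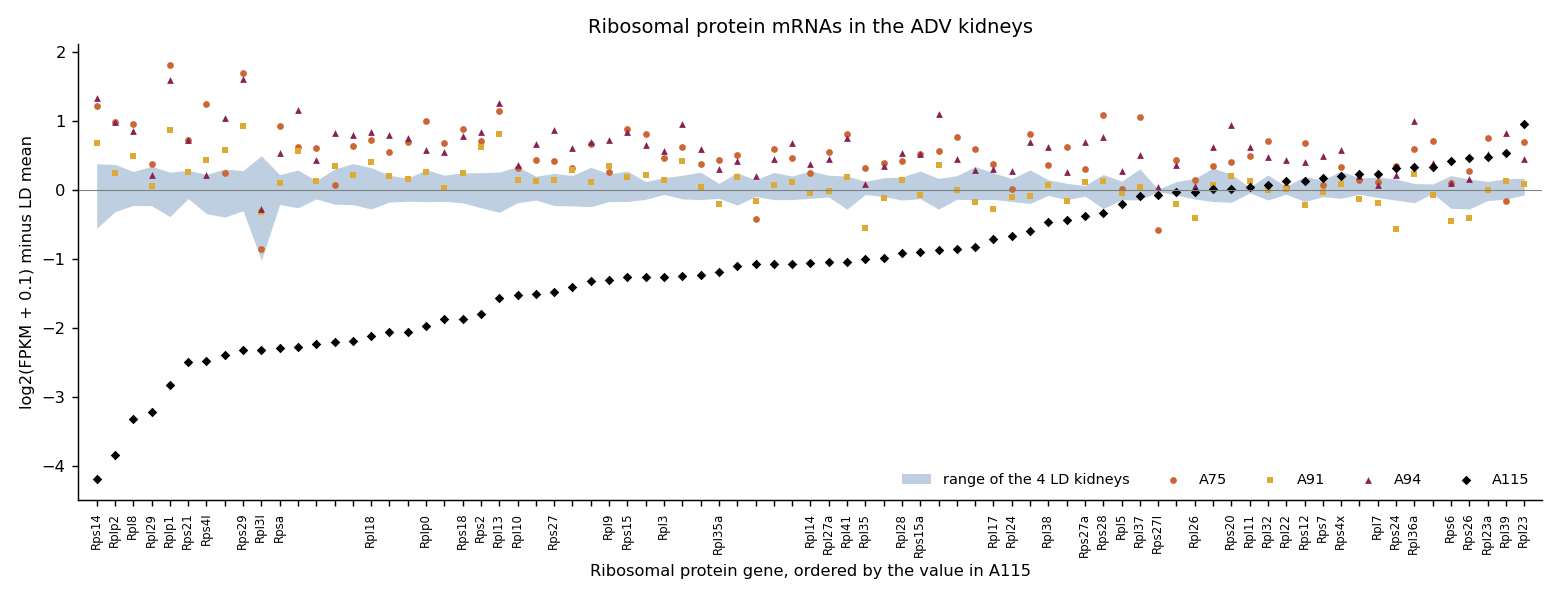
Level of each of 79 ribosomal protein genes in the 4 ADV kidneys, as log2(FPKM + 0.1) minus the mean of the LD kidneys (vertical axis), with the genes in order of their value in A115 (horizontal axis, genes named in the text labelled); the band is the range of the 4 LD kidneys. A115 runs from −4.19 for Rps14 to 0.96 for Rpl23, while A75 and A94 lie above the band for most genes, with Rplp1 and Rps29 among the highest.

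Without the kidney of A115, the median difference between ADV and LD was 0.41, against 0.20 for all 14475 genes tested, and 72 of 79 genes were above 0 (67.8% of all genes). By limma, 16 of the 79 were higher with an adjusted p under 0.05, against 16.1% of all genes, and 0 were lower (2.68%, and 7.58% at an unadjusted p under 0.05), so that the share of called genes was 20.3% in this set. In 16 genes every remaining ADV kidney lay above every LD kidney, against 24.8% of all genes, and in 0 below (8.04%). With scaling by the median ratio as well, the median was 0.21 with 63 of 79 above 0 (51.4% of all genes) and 16 below (48.6%), and 9 of 79 were higher with an adjusted p under 0.05 (8.31% of all genes) and 0 lower (7.7%). Without that scaling, the largest log2 differences were those of Rplp1 (1.43, standard error 0.25, adjusted p = 0.0130 by limma), Rps29 (1.41, standard error 0.23, adjusted p = 0.0119), Rps14 (1.08, adjusted p = 0.0246) and Rpl13 (1.08, adjusted p = 0.0111). Rpl8 and Rplp2 had 0.77 and 0.74 (adjusted p = 0.0191 and 0.0497 by limma). With the scaling Rplp2 had 0.55 (adjusted p = 0.0687 by limma), which ends its call. Before scaling, 8 of the 16 called genes belonged to each subunit. With all 8 kidneys the log2 differences of Rplp1, Rps29, Rpl13, Rps14, Rpl8 and Rplp2 were 0.37, 0.48, 0.42, −0.24, −0.25 and −0.40 (adjusted p = 1.0 each by limma), so that 1 kidney decided these values. Of the 16 called genes, 6 (Rpl8, Rpl18, Rpl36, Rplp2, Rps14 and Rps21) were below 0 with all 8 kidneys. Without A94 and without A75 the median of the 79 genes was −0.14 and −0.13.

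The ADV effect was also compared between the organs, in 1 limma fit of all 16 libraries. The median of the difference between the effects, liver minus kidney, was 0.15 for the 79 genes and 0.13 for all 14379 genes, and 62 of 79 were above 0 (67.7% of all genes). Without A115 the median of the set was −0.16, and −0.078 with median-ratio scaling as well, so that 1 mouse decided its direction. By limma 0 genes of the set had an adjusted p under 0.05 (0.0% of all genes), and Rps27l was the single gene with an unadjusted p under 0.05 (3.1% of all genes in this direction and 0.626% in the other). Rps27l was at 160.1, 162, 162 and 158 FPKM in the LD kidneys and at 107, 153, 165 and 153 FPKM in A75, A91, A94 and A115, a log2 difference of −0.17 in the kidney against 0.27 in the liver. The difference between these was 0.44 (standard error 0.20, adjusted p = 1.0 by limma). Rps27l in A115 lay close to the LD kidneys, and the low value was that of A75. With each mouse left out, its kidney difference lay between −0.239 and −0.0294.

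Between the organs, the direction for the set as a whole depended on the scaling. As deposited, the median log2 difference, liver minus kidney, was −0.29 for the 79 genes and −0.74 for all 14379 genes, with 1 gene (Rps27a) higher and 27 lower in the liver with an adjusted p under 0.05 by limma, against 13.1% and 61.5% of all genes. Without mouse A115 the median was −0.45, and 1 gene was higher and 58 were lower, against 13.9% and 71.7% of all genes. With scaling by the median ratio the median of the set was 0.48 against −0.013 for all genes, with 44 genes higher and 4 lower, against 31.5% and 33.8% of all genes, and with quantile normalization it was −0.48 again. In LD libraries alone, as deposited, the median was −0.37. No direction is therefore given for the set. Within the set, differences between the genes do not depend on the scaling of a library, and they were tested after each library had been centred on the median of the ribosomal protein genes. This fit had no term for the mouse, although both organs came from the same mice.

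Centred in this way, 10 of 79 genes were higher in the liver and 17 were higher in the kidney, at an adjusted p of 0.05 by limma across all 14379 genes, against 16.9% and 46.6% of all genes. At an unadjusted p under 0.05, 21 were higher in the kidney (49.0% of all genes), and 36 differences lay above 0 (30.1%) and 43 below (69.9%). All 27 were called in the same direction without A115 and in the LD libraries alone, where 18 and 16 genes were called as higher in the liver (20.9% of all genes in each fit) and 24 and 26 as higher in the kidney (51.6% and 53.7%).
Among the kidney-high genes, apart from Rpl3l (−2.71, standard error 0.24), the largest difference was that of Rps28, a small-subunit protein at the mRNA exit, with −1.42 (standard error 0.15, adjusted p = 2.06e-07 by limma). In units of the median ribosomal protein gene of the same library, Rps28 was at 0.317 to 0.482 (median 0.369) in the 8 livers and at 0.740 to 1.63 (median 0.974) in the 8 kidneys. No liver reached any kidney. Its window printed above has no tract.
Rpl38, which is known from mice with a skeletal patterning defect and from the translation of Hox mRNAs, was at 0.510 to 0.689 (median 0.536) in the livers and 0.837 to 1.58 (median 0.921) in the kidneys, a difference of −0.84 (standard error 0.14, adjusted p = 6.28e-05 by limma). Rpl28 was at 0.948 to 1.17 in the livers and 1.64 to 2.20 in the kidneys, a difference of −0.80 (standard error 0.12, adjusted p = 1.06e-05). For Rpl35, at the tunnel exit, the ranges were 0.782 to 0.899 and 0.987 to 1.87, with a difference of −0.76 (standard error 0.13, adjusted p = 9.43e-05), and its kidney values were lowest in A91. In these 3 genes, which begin with the tracts printed above, liver and kidney did not overlap either. Over the genes with a promoter entry, the median centred difference was −0.091 with a tract and −0.055 without.
Rpl39 had ranges of 0.263 to 0.388 in the livers and 0.315 to 1.72 in the kidneys, which overlapped, and a difference of −0.84 (standard error 0.25, adjusted p = 0.00694 by limma). In Rps28, Rpl38, Rpl28, Rpl35 and Rpl39 alike, the highest kidney value was that of A115. Without A115 the highest values were 1.30, 1.06, 1.83, 1.74 and 0.580, in the same order of genes.
The other kidney-high genes that are reported here were Rpl5, Rpl14, Rpl17, Rpl22, Rpl32, Rpl41, Rps12, Rps26, Rps27 and Rps29, with differences between −0.68 (Rps29) and −0.28 (Rps27).

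Among the liver-high genes, Rps14 had a difference of 1.12 (standard error 0.40, adjusted p = 0.0218 by limma), a value that was 0.68 without A115, where Rps27a with 0.87 was above it, and 0.98 in the LD libraries. Rps27a, which is translated as a fusion of ubiquitin with the ribosomal protein and so also supplies ubiquitin, had a difference of 0.74 (standard error 0.15, adjusted p = 0.000318). Relative to the median gene it was at 1.69 to 2.002 (median 1.89) in the livers and at 0.897 to 1.88 (median 1.10) in the kidneys, where A115 was the highest and the other 7 reached at most 1.13. Rpl10 was at 2.498 to 3.46 in the livers and 1.79 to 2.41 in the kidneys, a difference of 0.55 (standard error 0.12, adjusted p = 0.000600), without overlap, and most of its transcript occurs in other annotated genes. Rpl9 was at 1.41 to 1.58 in the livers and 0.876 to 1.22 in the kidneys, a difference of 0.51 (standard error 0.12, adjusted p = 0.00099), also without overlap. Rpl18 and Rps2 had differences of 0.59 and 0.56 (adjusted p = 0.00352 and 0.00275 by limma), and Rpl27a, Rps15, Rps18 and Rpsa completed the 10. The sizes of the differences between neighbours in this order were within 1 standard error of each other for Rpl18, Rps2, Rpl10 and Rpl9.

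**Figure D5:**
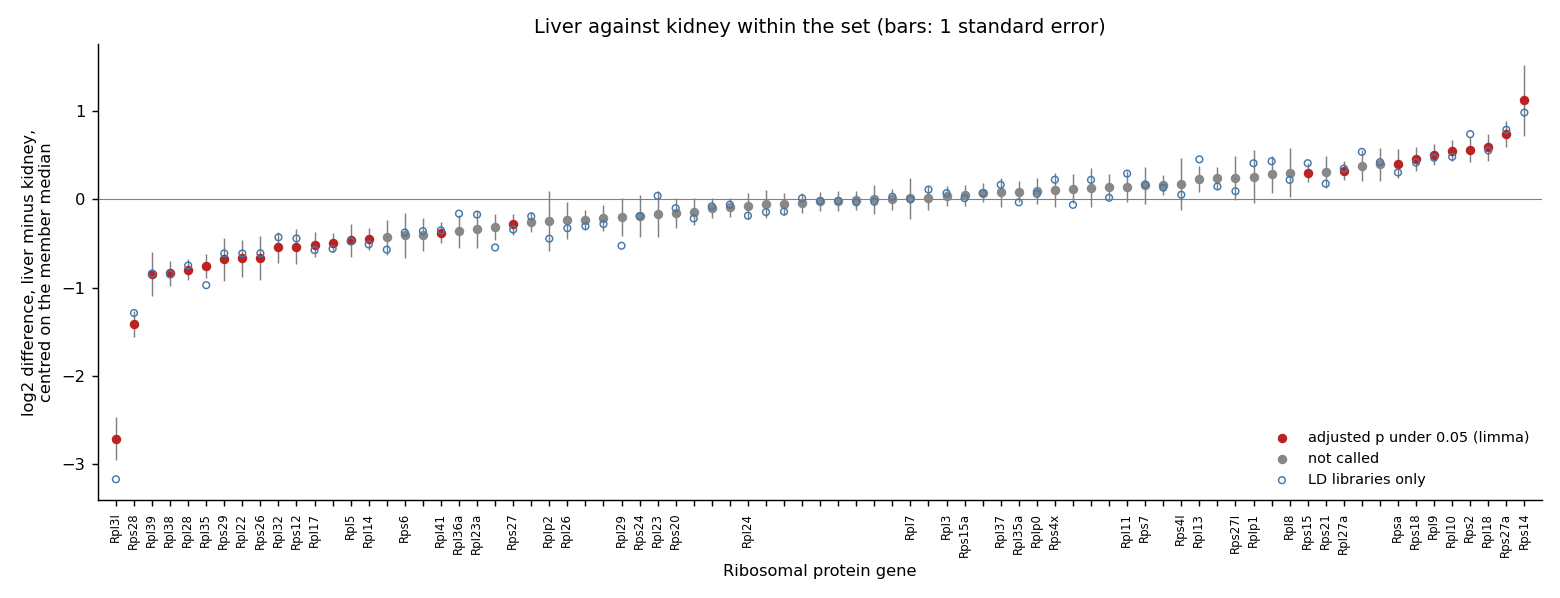
Difference between liver and kidney (log2 scale, liver minus kidney, each library centred on the median ribosomal protein gene) for 79 genes in order of size (genes named in the text labelled); filled points with bars of 1 standard error are the fit of all 16 libraries, red where the adjusted p by limma was under 0.05, and open circles are the LD libraries alone. Rpl3l (−2.71) and Rps28 (−1.42) lie at the kidney end and Rps27a (0.74) and Rps14 (1.12) at the liver end, and the open circles lie on the same side of 0 for all red points.

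The length of the exons moved with the comparison of the organs at the short end. The 5 ribosomal protein genes with up to 400 bases of exon, among them Rps28, Rpl38 and Rps29, had a median centred difference of −0.68, and the 27 genes of 400 to 600 bases one of −0.056. For other genes of these lengths the medians were −0.58 (59 genes) and −0.37 (210 genes), and between −0.51 and −0.28 in the longer classes. Over the 79 genes the centred difference had a Spearman correlation of 0.25 with exon length and 0.026 with GC content. When the trend with exon length was removed from each library before it was centred, a setting added later, 11 genes were higher in the liver (21.3% of all genes) and 18 in the kidney (42.7%) with an adjusted p under 0.05 by limma. Centred in this way, Rps28 had a difference of −1.38 (adjusted p = 1.6e-07 by limma), Rpl38 one of −0.80 (adjusted p = 5.27e-05), Rpl39 one of −0.82 (adjusted p = 0.00801), Rps29 one of −0.65 (adjusted p = 0.03) and Rps27a one of 0.72 (adjusted p = 0.000321). The calls of Rpl5 (−0.36) and Rps27 (−0.25) ended (adjusted p = 0.0519 and 0.0623 by limma). The removal left part of the shift at the short end. Without centring, the 59 other genes of up to 400 bases still had a median of −0.19 after it. The longer classes lay between 0.0034 and 0.069. The values of Rps28, Rpl38 and Rps29 were therefore not freed of this shift. 

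Genes with related roles were set beside the ribosomal proteins. Of 8 ribosomal proteins and close relatives whose symbols fall outside the rule, among them Fau, which encodes a fusion with a ubiquitin-like protein, and Rack1, 7 were above 0 in the ADV livers, with a median of 0.12, and 0 of 8 had an adjusted p under 0.05 by limma in either organ. Without A115 the median of these 8 in the kidney was 0.35, with Rack1 higher (0.60, adjusted p = 0.0332 by limma), 1 of 8 against 16.1% of all genes. With all 8 kidneys Rack1 had a difference of 0.021. The 78 genes of mitochondrial ribosomal proteins had medians of 0.066 in the liver and −0.090 in the kidney, and 0.17 in the kidney without A115, where 22 were higher and 1 lower with an adjusted p under 0.05. That is 28.2% higher, against 20.3% of the cytosolic set and 16.1% of all genes.
The 17 other TOP genes, mainly elongation and initiation factors, had medians of −0.0016 in the liver and 0.036 in the kidney, with 0 genes past the threshold. In the kidney without A115 the median was 0.10, with Eef2, the translocation factor, and Eef1d higher (0.51 and 0.42, adjusted p = 0.0321 and 0.0391 by limma) and Nap1l1 lower (−0.37, adjusted p = 0.0259). That is 2 of 17 higher (11.8%, against 16.1% of all genes) and 1 lower (5.88%, against 2.68%). With all 8 kidneys Eef2 had a difference of −0.32 (adjusted p = 1.0 by limma). Hnrnpa1 had the smallest p of this list in the kidney of all 8 mice (0.61, adjusted p = 1.0).
The 38 genes of ribosome biogenesis had medians of −0.034 in the liver and 0.0042 in the kidney. Myc, a transcription factor that drives ribosome biogenesis, had the smallest p among those that were higher in the liver (0.84, unadjusted p = 0.0331 by limma). Without A115, 6 of the 38 (15.8%, against 16.1% of all genes) were higher in the kidney with an adjusted p under 0.05, with Rrp9 (1.05) and Eif6 (0.95) the largest, and 0 were lower. With all 8 kidneys the differences of Rrp9 and Eif6 were 0.315 and 0.095.
The 19 genes of mTORC1 signalling had medians of −0.061 and −0.15 in liver and kidney, with 0 genes past the threshold. At an unadjusted p under 0.05 by limma, 3 were lower in the ADV livers (3.13% of all genes), namely Deptor, which binds and inhibits mTOR (−0.32, unadjusted p = 0.00371), Eif4ebp2, a repressor of cap-dependent translation (−0.41, unadjusted p = 0.00567), and Sesn2 (−0.58, unadjusted p = 0.032). Larp1 had differences of −0.041 and −0.063 in liver and kidney. In the kidney without A115, 3 of the 19 were higher with an adjusted p under 0.05 (15.8%, against 16.1% of all genes). Of these, Ddit4, an inhibitor of mTORC1 that responds to stress and glucocorticoids, had the largest difference (1.67, adjusted p = 0.0352 by limma), and the others were Akt1s1 (0.64, adjusted p = 0.0232) and Rps6kb2 (0.46, adjusted p = 0.0406). With all 8 kidneys Ddit4, Akt1s1 and Rps6kb2 had differences of 1.1, −0.45 and −0.21, so that 1 kidney decided the direction of Akt1s1 and Rps6kb2. With median-ratio scaling as well, the genes higher in the kidney without A115 were 0 of the 8 outside the rule, 0 of the 17 TOP, 3 of the 38 biogenesis, 1 of the 19 mTORC1 and 11 of the 78 mitochondrial ribosomal genes (8.31% of all genes). Those lower were 0, 3, 4, 3 and 3 (7.7% of all genes).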

How the data were processed

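Poly(A)-enriched RNA of 16 libraries had been sequenced in stranded, paired-end runs. According to the submitters' processing notes and the methods of the study, the authors trimmed adaptors, mapped reads to GRCm38/mm10 with STAR 2.5.4b, removed reads with a mapping quality under 10 and counted fragments over exons of UCSC knownCanonical models by HOMER. The values deposited are FPKM, with RPKM in the column names, divided by each library's own total, beside the exon length, and 100% of the values lay on steps of 0.5 fragment (tolerance 0.01). Each mouse was taken as a replicate, and the group came from the labels.

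The genes and all lists were chosen with earlier results of these data known. FPKM were tested as log2(FPKM + 0.1) with limma 3.58.1 (R 4.3.3, lmFit, eBayes with a trend), in place of the count test of the study, over genes with a mean above 0.5 CPM (recovered from the fragments), with Benjamini-Hochberg adjustment over all of them, and single genes also with a two-sided exact permutation test over 70 assignments of the mice. Fold changes on this scale understate low genes. A median-ratio scaling, quantile normalization, totals without mitochondrial genes, centring on the set, pseudocounts of 0.5 and 1, other filters, no trend, limma-voom, the mouse as a block and leaving out each mouse were alternatives. Leaving out A94 or A115 together with scaling, removing the exon length trend, alone or before centring, and using LD libraries only were added after seeing the data. The fits were checked on simulated data. Named genes were those with the highest and lowest levels, the smallest p in each direction, the largest centred organ differences, paralogs with their partners, and 10 genes with roles of their own (Rplp0, Rplp1, Rplp2, Rpsa, Rps6, Rpl5, Rpl11, Rps27a, Rpl13a and Rpl41). Other genes, such as Rpl8, Rpl13 and Rpl22, and those in counts, were named after their values were seen.

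Liver and kidney came from the same mice by their labels. Deviations from the group mean over 12319 genes correlated between the organs of a mouse by 0.147, 0.117, 0.185 and 0.0982 in L63, L65, L86 and L104, and by −0.0242, 0.334, 0.553 and 0.0423 in A75, A91, A94 and A115. In A75 and A115 the median correlation with other mice was higher (0.0437 and 0.0568), and the best match was another mouse. For each of the others the best match was the same mouse. Start windows came from RefSeq (GRCm38.p6), and transcripts for shared stretches of 100 bases from GENCODE. Python 3.11.15 with pandas 2.3.3 and scipy 1.17.1 was used. Differential expression by DESeq2 was not run here. Some genes are not reported here by name.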

Additional observations from a re-analysis of the deposited data

Results flagged for a closer look

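Of 172 values tested, 30 were set apart because the highest or lowest of 4 mice lay far from the other 3 (Dixon's ratio above its 95% critical value), where chance sets apart about 1 in 20 groups. The values were mainly those of 41 named genes, most of which had been named for their levels or p-values in these same libraries, so that the count cannot be read against that rate. Most of the 30 belonged to the liver of A94. There the share of fragments on the ribosomal protein genes was 2.01%, against 1.31% to 1.41% in the other ADV livers. The large-subunit genes with such a value in that liver were Rpl13a with 196 FPKM (others 111 to 117), Rpl28 with 271 (187 to 198), Rpl35 with 257 (164 to 168), Rpl37 with 169 (111 to 118), Rpl38 with 197 (94.7 to 108), Rpl39 with 111 (61.5 to 68.6), Rpl41 with 709.6 (360.1 to 415), Rpl9 with 443 (283 to 291), Rplp1 with 458 (229 to 258) and Rplp2 with 297 FPKM (102 to 121). Those of the small subunit were Rps2 with 557 FPKM (349 to 381), Rps24 with 550.4 (332 to 350.2), Rps28 with 138 (66.5 to 77.6), Rps29 with 208 (106 to 113) and Rpsa with 325 FPKM (205 to 223).

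Low values marked the liver of L104, with Rpl5 at 79.6 FPKM (others 93.5 to 95.8), Rps24 at 284 (342 to 344), Rps27a at 279 (355 to 367) and Rps7 at 173 FPKM (208 to 213). High values marked the kidney of L86, with Rpl23 at 269.5 FPKM (others 228 to 232), Rpl3 at 245 (207 in each of the others), Rpl35 at 410.2 (359 to 367) and Rps4x at 403 FPKM (306 to 317). In the kidney of A115, Rps2 was at 94.2 FPKM (others 509 to 588), Rpl32l at 1.15 FPKM (0.191 to 0.258) and the share of mitochondrial fragments at 33.8% (9.43% to 13.1%). Rpl39l was above the other mice of its group in the liver of L86 (0.0949 FPKM), the liver of A91 (0.0539 FPKM) and the kidney of L65 (0.583 FPKM), each by at most 8 fragments.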

How the results depend on the processing

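In the liver, the median and the counts kept their direction and side of the threshold under the alternatives run. For the interaction the median turned to −0.161 without A115 (−0.0783 with median-ratio scaling as well), and with median-ratio scaling and without A115, added after seeing the data, 2 genes had a lower ADV effect in the liver than in the kidney with an adjusted p under 0.05 (2.4% of all genes). Leaving out each mouse moved the median of the ADV difference between 0.0582 and 0.271 in the liver, between −0.137 and 0.405 in the kidney and between −0.161 and 0.366 for the interaction, so that the last 2 have no stable sign, and the genes higher in the ADV kidneys numbered between 0 and 16 (9 without A115 after median-ratio scaling). The log2 difference of Rpl29 in the kidney lay between −0.979 and 0.216 with each mouse left out, reversing without A115 (0.216, and 0.0255 with median-ratio scaling). For liver against kidney, leaving out each mouse moved the median between −0.451 and −0.195 and the genes lower in the liver between 21 and 58, the latter without A115 (71.7% of all genes there). The median was 0.483 and the higher and lower genes 44 and 4 with median-ratio scaling, 0.491, 43 and 3 with it and without A94 (31.7% and 34.0% of all genes), and 0.392, 52 and 6 with it and without A115 (36.3% and 38.9%). With the exon length trend removed they were 0.338, 42 and 5 (33.8% and 31.4% of all genes), with centring 10 and 17, with quantile normalization 0 and 41 (31.3% and 32.3%), with LD libraries alone 3 and 53 (15.8% and 69.3%), and with totals without mitochondrial genes 43 were lower (67.0%). Quantile normalization reversed Rpl10 (−0.282) and Rps2 (−0.0674). The cause of these moves was not tested. With the mouse as a replicate block, in this paired design, 1 gene was higher and 29 were lower in the liver (13.5% and 62.2% of all genes), the median was −0.287 and the interaction gave 0 genes, so that no call count moved by over 1.5 times. Depth limits Rpl10l, Rpl32l and Rpl39l in both organs, with at most 13 fragments in a library, and Rpl3l in the liver, with at most 3, against 5.5 to 51.5 in the kidneys.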
